A study of Mus musculus with 32 samples.

Results

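The nuclear-encoded subunits of respiratory complex I were followed in laser-captured motor neurons and glia of the mouse spinal cord. The members were all non-control array probes whose gene name started with Ndufa, Ndufb, Ndufc, Ndufs, Ndufv or Ndufab, and the brightest probe stood for its gene. The rule used names and the signal over all arrays, and no difference between groups. It found 54 probes for 36 genes, of 27540 genes or single unnamed probes on the array. They comprised 7 core subunits of the matrix arm, 8 accessory subunits of the matrix arm, 9 subunits of the proximal and 10 of the distal membrane arm, the acyl carrier protein Ndufab1, and Ndufa4. Ndufa4 was long listed as a complex I subunit and is now placed in complex IV. Genes now named Ndufaf are assembly factors and are described apart. The subunit Ndufv3 stood on the array under a RIKEN clone name and lay outside the rule, and the mitochondrially encoded subunits were not analysed here.

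Complex I is the entry point of the respiratory chain. Its matrix arm takes electrons from NADH through a flavin and a row of iron-sulphur clusters, and its membrane arm, which holds the mitochondrially encoded subunits, pumps protons across the inner membrane. The accessory subunits surround this core and are needed for its assembly and stability. Motor neurons have long axons and a high demand for ATP, and mitochondrial changes are a known feature of mice that carry mutant SOD1.

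The study set 2 mouse models of motor neuron disease against their own littermates. The SOD1-G93A mice, whose transgene encodes mutant human superoxide dismutase, were of the strain B6SJL-Tg(SOD1-G93A)1Gur and were compared with nontransgenic B6SJL littermates at 8 weeks of age. TAU-P301L mice, which carry a mutant human tau, were B6D2F1-Tg(TAU-P301L) and were compared with B6D2F1 littermates at 16 weeks. All mice were female. The labels do not name the promoter of either transgene. From cresyl violet stained sections of the lumbar anterior horn, 500 motor neurons or 500 cells of the glia around them were cut out per mouse, and their RNA was amplified with Agilent's linear amplification kit for small inputs. The comparisons were SOD1-G93A motor neurons (SODmn), SOD1-G93A glia (SODgl), TAU-P301L motor neurons (TAUmn) and TAU-P301L glia (TAUgl), each transgenic over control. Each comparison held 4 littermate pairs, and every pair was run on an array in each dye orientation, which gave 32 arrays. The ratio of a pair is the mean of its 2 arrays, given as log2 of transgenic over control, and an SD is that over the pairs. The 2 models differ in transgene, strain and age together, and these cannot be told apart.

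Stretches of 250 bases upstream of the transcription start were read for the members, since genes of the respiratory chain are known targets of NRF1 and of ETS-family factors such as NRF2/GABP. Promoter windows from RefSeq (GRCm38.p6) were found for 32 of the 36 members. The NRF1-type letters GCGCA and GCGC with 1 free base between them, read on both strands, stood in the windows of 6 members (Ndufa5, Ndufa8, Ndufa11, Ndufb4, Ndufs5 and Ndufs6), and in 3.74% of all 32851 windows of that length. The ETS-type letters CCGGAAG, also read on both strands, stood in those of 3 members (Ndufb6, Ndufb7 and Ndufs3), and in 6.91% of all windows. No member held both, and 23 held neither. A match describes the letters of the window and is not a measured site. The windows of Ndufs3, Ndufa8 and Ndufs6 are shown because these genes recur in the results: the first pair in TAU-P301L glia, and Ndufs6 for its difference between the cell types. All lie on the minus strand, at chr2:90904722-90904971, chr2:36049339-36049588 and chr13:73328483-73328732, and capitals mark the ETS-type letters in Ndufs3 and the NRF1-type letters in the others.
Ndufs3: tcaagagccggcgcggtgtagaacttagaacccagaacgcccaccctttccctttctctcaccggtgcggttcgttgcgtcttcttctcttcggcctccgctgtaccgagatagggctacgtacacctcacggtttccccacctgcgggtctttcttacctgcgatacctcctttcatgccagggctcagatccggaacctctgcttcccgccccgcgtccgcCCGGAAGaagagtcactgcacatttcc
Ndufa8: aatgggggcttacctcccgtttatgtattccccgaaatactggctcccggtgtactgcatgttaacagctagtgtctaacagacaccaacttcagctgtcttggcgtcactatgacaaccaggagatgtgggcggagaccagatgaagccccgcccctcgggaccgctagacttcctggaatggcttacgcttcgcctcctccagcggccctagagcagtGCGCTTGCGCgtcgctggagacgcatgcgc
Ndufs6: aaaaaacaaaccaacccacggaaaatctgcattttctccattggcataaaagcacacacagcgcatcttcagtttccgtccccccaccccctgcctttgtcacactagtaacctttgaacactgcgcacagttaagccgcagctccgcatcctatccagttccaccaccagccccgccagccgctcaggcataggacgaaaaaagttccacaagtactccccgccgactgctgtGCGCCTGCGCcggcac
In each of these windows the first base of the match lay at most 30 bases upstream of the start.

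The captured cells were checked against marker genes on the control extracts, whose levels are log2 normalized intensities. Motor neurons exceeded glia for 6 of the 9 motor neuron markers that could be tested, against 26.3% of all 9923 genes. Among them were Snap25 by 2.23 ± 0.25 (SE, limma adjusted p = 7.38e-05) and Calca by 2.21 ± 0.39 (adjusted p = 0.00073). Mnx1 was higher in glia, and Isl1, at -0.37 ± 0.18 (limma adjusted p = 0.112), lay the same way without passing. Glia exceeded motor neurons for 5 of 9 markers of astrocytes and for 5 of 8 of oligodendrocytes, against 14.5% of all genes. The reverse held for 0 of either list. Several defining markers were seldom above background: Chat in 6, Slc18a3 in 4, Gfap in 6 and Mog in 0 of the 16 control extracts. Between 9% and 79.3% of probes per channel were well above background. The arrays of a pair did not always tell the same story: over all genes tested, the dye-swapped arrays correlated at r = -0.75 in TAUgl pair 1, -0.46 in SODgl pair 2, -0.20 in TAUmn pair 3, and -0.08 in both SODgl pair 1 and TAUgl pair 3, and at 0.67 in the best pair, SODmn pair 4. SODmn replicate 3 stood apart in level. Its control extract had a median of 8.22 over the 34 members with a tested level, against 9.52 to 9.79 in the other SODmn controls, and its transgenic extract 8.32. The medians over members are given with and without SODmn replicate 3, SODgl pair 2, TAUmn pair 3 and TAUgl pair 1. The same holds for the named genes that these weigh on most. Without SODgl pair 1 the SODgl median over members was 0.03, and without TAUgl pair 3 the TAUgl median was 0.18.

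**Figure D1:**
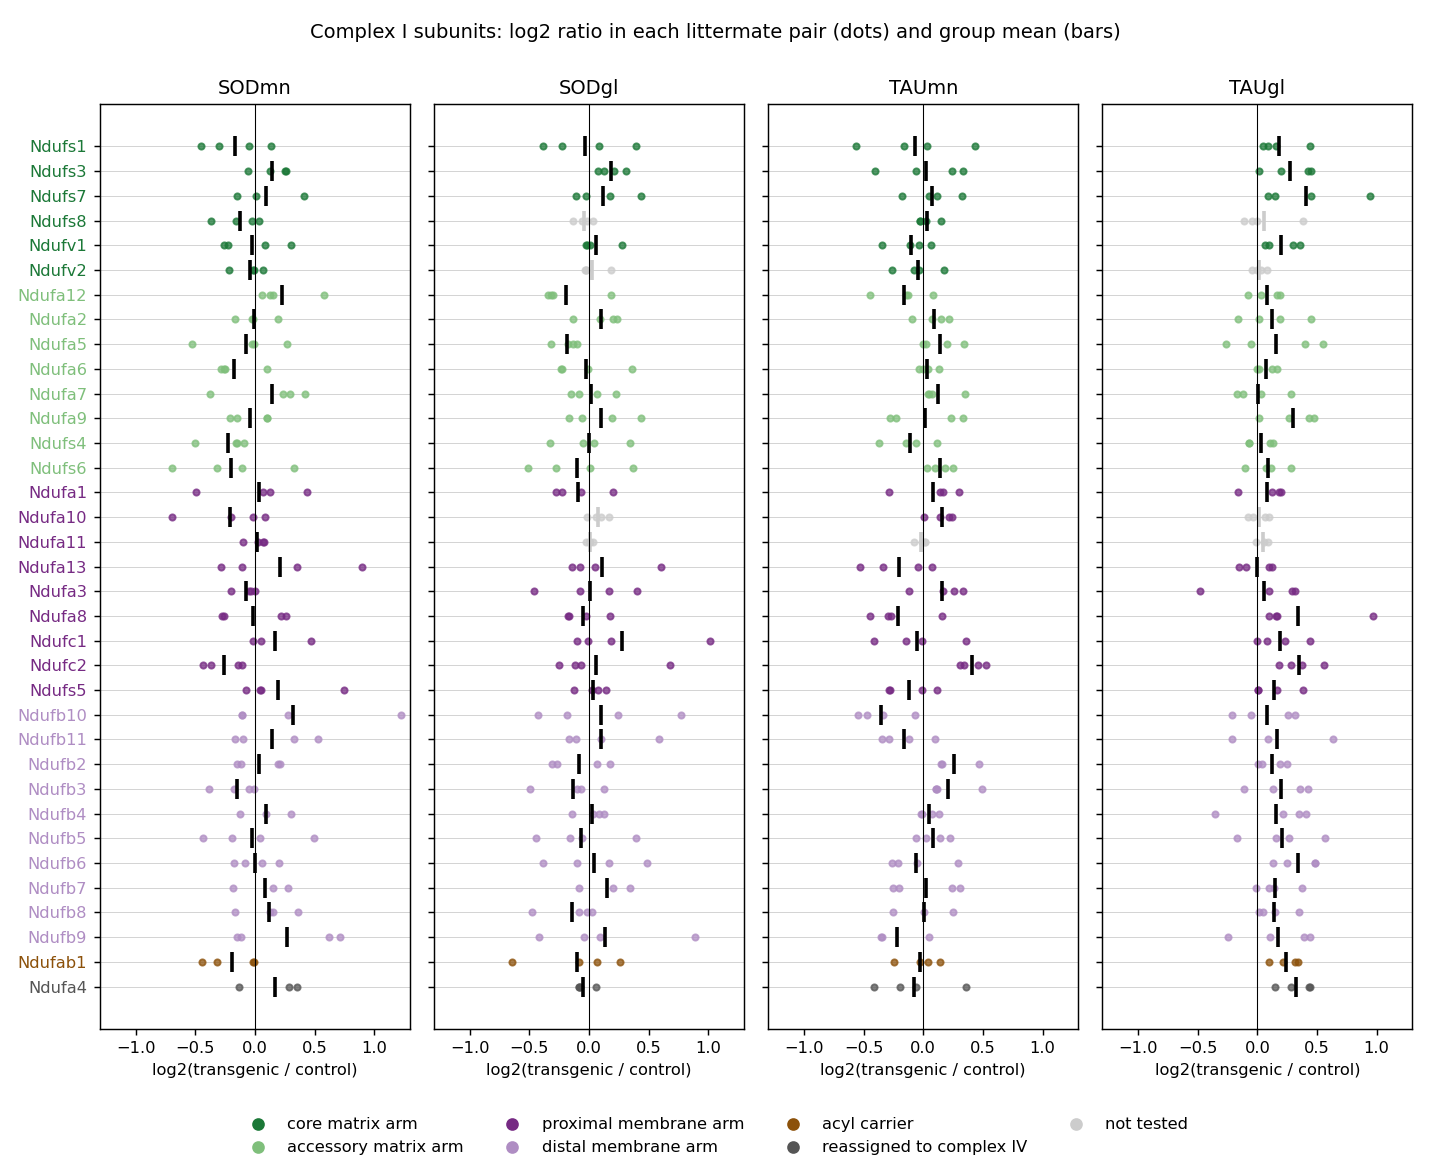
Log2 ratio of transgenic over control for 35 of the 36 complex I genes in the 4 comparisons; dots are littermate pairs, bars their mean, and grey marks genes too dim to be tested. Dots fall on both sides of 0 in SODmn, SODgl and TAUmn, while in TAUgl the means of 30 of the 31 tested members lie above 0.

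In SOD1-G93A motor neurons, no complex I subunit passed the test. Of 35 members tested by limma with Benjamini-Hochberg adjustment over all 13266 genes, 0 were called, against 0.00754% of all genes, and the smallest adjusted p of a member was 0.448. Members lay on both sides of 0: 17 of 35 had a mean above 0 (50.2% of all genes), with a median of -0.0018 against 0.00046 over all genes and a range from -0.26 to 0.32. At an unadjusted p under 0.05, 1 member lay higher (3.99% of all genes) and 3 lower (6.63% of all genes). All 4 pairs lay above 0 for 1 member (5.45% of all genes) and below 0 for 5 (7.89% of all genes). The median SE of a member was 0.11 and the median SD over pairs 0.24, so the 4 pairs limit what could be seen.

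The core matrix arm carries the flavin and the iron-sulphur clusters. Ndufs1, the largest of these subunits, had ratios of -0.31, 0.13, -0.05 and -0.45 in pairs 1 to 4, a mean of -0.17 (SD 0.26, limma adjusted p = 0.681). Pairs 1 and 4 were low, and pair 2 lay above 0. Ndufs3, a subunit of the connecting part of the arm, had 0.26, 0.12, -0.06 and 0.25, a mean of 0.14 (SD 0.15, adjusted p = 0.612), with pair 3 alone below 0. Ndufs7 and Ndufs8 hold the last iron-sulphur clusters before ubiquinone. Ndufs7 had -0.15, 0.01 and 0.41 in pairs 1, 2 and 4, a mean of 0.09 (SD 0.29, adjusted p = 0.859), pair 3 being lost to a spot marked as an outlier. Ndufs8 had -0.16, -0.02, 0.04 and -0.37, a mean of -0.13 (SD 0.18, adjusted p = 0.528). The NADH-binding subunit Ndufv1 split evenly, with -0.26, 0.09, -0.23 and 0.30 (mean -0.02, SD 0.27, adjusted p = 0.941). Its partner Ndufv2 stayed near 0 in the first 3 pairs, with -0.01, -0.02, 0.07 and -0.21 (mean -0.04, SD 0.12, adjusted p = 0.808).

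Among the accessory subunits, those with 1 sign in every pair and the smallest p were Ndufa12 above 0 and Ndufs4, Ndufc2, Ndufab1 and Ndufb3 below. Ndufa12, at the foot of the matrix arm, had 0.15, 0.06, 0.13 and 0.58, a mean of 0.23 (SD 0.24, limma adjusted p = 0.456). Pair 4 was the highest by a wide margin, and 2 further probes of the gene had means of -0.04 and -0.11. Ndufs4, a late-joining matrix arm subunit whose loss causes a Leigh-like disease in mice, had -0.16, -0.09, -0.15 and -0.51, a mean of -0.23 (SD 0.19, adjusted p = 0.448). Ndufc2, of the proximal membrane arm, had -0.11, -0.43, -0.15 and -0.37, a mean of -0.26 (SD 0.16, adjusted p = 0.454). For both genes all pairs lay below 0, with pair 4 among the lowest. The acyl carrier protein Ndufab1, which also serves mitochondrial fatty acid synthesis, had -0.01, -0.01, -0.32 and -0.45 (mean -0.20, SD 0.22, adjusted p = 0.535). Ndufb3, of the distal membrane arm, had -0.01, -0.05, -0.17 and -0.38 (mean -0.15, SD 0.17, adjusted p = 0.596). In each of these, 2 pairs lay close to 0 and pair 4 was the lowest. Chosen after its values were seen, Ndufa10 also had an unadjusted p under 0.05 (limma adjusted p = 0.454), with -0.69 in pair 1 and -0.20 to 0.09 in the others.

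By position, the medians were -0.03 for the core, -0.06 for the accessory matrix arm (2 of 8 above 0), 0.02 for the proximal and 0.09 for the distal membrane arm (7 of 10 above 0). The distal arm was uneven over the pairs, with medians of 0.23, -0.12, -0.11 and 0.28. Pair 4 also held the widest single value, 1.23 for Ndufb10, a gene picked for that value, with -0.11 in pairs 2 and 3. Members measured in 3 pairs were Ndufa4, Ndufb4, Ndufb7, Ndufc1 and Ndufs7. When probes had to be well above background in all 8 extracts, 9 members were left, 1 of them above 0, with a median of -0.15. Without SODmn replicate 3, the library of lowest level, the median over 35 members was 0.04, with 20 above 0. The means of Ndufa12, Ndufs4 and Ndufc2 were then 0.26, -0.25 and -0.30.

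In SOD1-G93A glia the picture was again one of values around 0. No member was called (0 of 31, against 0.0765% of 10452 genes by limma), the smallest adjusted p was 0.354, and no member reached an unadjusted p under 0.05 in either direction, against 7.66% of all genes higher and 8.53% lower. Of 31 members 18 lay above 0 (56.8% of all genes), with a median of 0.01 against 0.02 over all genes. All pairs lay above 0 for 1 member (9.47% of all genes) and below 0 for 1 (9.57% of all genes). The medians by pair were -0.07, 0.01, 0.13 and -0.09. Ndufa10, Ndufa11, Ndufs8 and Ndufv2 were among those too dim to be tested, and Ndufb7 was measured in 3 pairs.

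Of the core subunits, Ndufs3 lay above 0 in every SODgl pair, with 0.07, 0.31, 0.13 and 0.21, a mean of 0.18 (SD 0.10, limma adjusted p = 0.411). Ndufs1 had 0.09, -0.39, 0.39 and -0.22 (mean -0.03, SD 0.35, adjusted p = 0.95), with pairs on either side of 0. Ndufs7 had -0.03, 0.44, 0.18 and -0.11 (mean 0.12, SD 0.25, adjusted p = 0.758), and Ndufv1 -0.02, 0.27, 0.01 and -0.01 (mean 0.06, SD 0.14, adjusted p = 0.828). In both, pair 2 was the highest. The dye-swapped arrays of that pair correlated at r = -0.67 over the members, and those of pair 1 at -0.20. Without pair 2 the means of Ndufs3, Ndufs7 and Ndufv1 were 0.14, 0.01 and -0.0097, and the median over the 31 members was 0.0032, with 16 above 0. Ndufa5, an accessory matrix arm subunit, was the single member below 0 in all pairs, with -0.13, -0.18, -0.11 and -0.32 (mean -0.18, SD 0.10, adjusted p = 0.525). The smallest p belonged to Ndufa12, named after its values were seen, at -0.32, -0.34, -0.30 and 0.19 (mean -0.20, SD 0.26, adjusted p = 0.354). Its pair 4 opposed the other pairs. Medians by position were 0.09 for the core, -0.01 for the accessory matrix arm, and 0.03 for both the proximal and the distal membrane arm.

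In TAU-P301L motor neurons, Ndufc2 had the smallest p of any member in this comparison, and its value did not pass the adjusted threshold. Ndufc2 had 0.53, 0.31, 0.46 and 0.34, a mean of 0.41 (SD 0.10, limma adjusted p = 0.952). All pairs were well above 0 and close together. Of 35 members, 0 were called, against 0% of 11639 genes. At an unadjusted p under 0.05, 2 lay higher (2.22% of all genes) and 0 lower (2% of all genes). Of the members 20 had a mean above 0 (46.5% of all genes), with a median of 0.02 against -0.01 over all genes.

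Further members had 1 sign in every TAUmn pair, which was so of 5 above 0 (6.5% of all genes) and 1 below (6.1% of all genes). Ndufb3 had 0.11, 0.10, 0.11 and 0.49 (mean 0.20, SD 0.19), with pair 4 far above the rest. Ndufa10, a proximal membrane arm subunit, had 0.01, 0.14, 0.22 and 0.24 (mean 0.15, SD 0.10), and Ndufa7, of the matrix arm, 0.05, 0.04, 0.35 and 0.07 (mean 0.13, SD 0.15). The member below 0 throughout was Ndufb10, of the distal membrane arm, at -0.34, -0.07, -0.55 and -0.48 (mean -0.36, SD 0.21). Ndufb2, named after its values were seen, had 0.15, 0.15 and 0.46 in the 3 pairs measured (mean 0.26, SD 0.18). The limma adjusted p of each of these 5 genes was 0.995. Without pair 3 the means of Ndufc2, Ndufa7 and Ndufb10 were 0.39, 0.05 and -0.29. The median over the 35 members was then 0.05, with 21 above 0 and 0 called, while 14 of all genes were called.

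The core subunits named here lay near 0 in TAUmn, each with a limma adjusted p of 0.995. Ndufs1 had 0.43, -0.56, 0.04 and -0.16 (mean -0.06, SD 0.41) and Ndufs3 had -0.41, 0.34, -0.06 and 0.24 (mean 0.03, SD 0.33). In these the pairs spread widely and in no common direction. Ndufs7 had -0.18, 0.11, 0.05 and 0.32 (mean 0.08, SD 0.21), and Ndufs8 had 0.02, 0.15, -0.03 and -0.03 (mean 0.03, SD 0.08). Ndufs8 has a dim probe, well above background in 6 of 8 extracts. Ndufv1 had -0.34, -0.03, -0.11 and 0.07 (mean -0.10, SD 0.18), and Ndufv2 had -0.03, 0.18, -0.07 and -0.26 (mean -0.05, SD 0.18). Medians by position were 0.03 for the core, 0.06 for the accessory matrix arm, and 0.01 for each membrane arm part. Ndufa11 was not tested, and Ndufb2, Ndufb8 and Ndufb9 were measured in 3 pairs.

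In TAU-P301L glia nearly all complex I members had a mean above 0, by small amounts, and none passed the adjusted threshold. Of 31 members tested 0 were called, against 0% of 8913 genes by limma, and the smallest adjusted p was 0.226. A mean above 0 was found for 30 of 31 members, against 50.9% of all genes, with a median of 0.16 against 0.0025. At an unadjusted p under 0.05, 8 members lay higher (5.21% of all genes) and 0 lower (8.67% of all genes). All 4 pairs lay above 0 for 13 members (8.87% of all genes) and below 0 for 0 (8.89% of all genes). The median over members was 0.12, 0.13, 0.11 and 0.23 in pairs 1 to 4, so the pairs did not differ in sign.

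Of the 4 core subunits tested in TAUgl, all lay above 0 in every pair, with a median of 0.24. Ndufs7 had 0.95, 0.15, 0.09 and 0.45, a mean of 0.41 (SD 0.39, limma adjusted p = 0.24). Pair 1 was the highest, and without that pair the mean was 0.23. Ndufs3 had 0.01, 0.45, 0.20 and 0.42 (mean 0.27, SD 0.21, adjusted p = 0.262), and Ndufv1 had 0.06, 0.30, 0.35 and 0.10 (mean 0.20, SD 0.14, adjusted p = 0.326). In both of these pair 1 was the lowest. Ndufs1 had 0.44, 0.04, 0.15 and 0.09 (mean 0.18, SD 0.18, adjusted p = 0.66), with pair 1 the highest. Without pair 1 the means of Ndufs3, Ndufv1 and Ndufs1 were 0.36, 0.25 and 0.09. Ndufs8 and Ndufv2 were well above background in 3 and 0 of 8 extracts and were not tested.

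Ndufa4, now counted to complex IV, had 0.43, 0.14, 0.28 and 0.44, a mean of 0.32 (SD 0.14, limma adjusted p = 0.226). Elsewhere in complex I, Ndufc2 had 0.28, 0.56, 0.37 and 0.18 (mean 0.35, SD 0.16, adjusted p = 0.234). Ndufb6, of the distal membrane arm, had 0.48, 0.49, 0.25 and 0.13 (mean 0.34, SD 0.18, adjusted p = 0.248). For these 3 genes every pair lay at least 0.13 above 0, and without pair 1 their means were 0.29, 0.37 and 0.29. The remaining members with an unadjusted p under 0.05, named after their values were seen, were Ndufa8 and Ndufa9. Ndufa8, a proximal membrane arm subunit, had 0.15, 0.10, 0.16 and 0.97 (mean 0.34, SD 0.42, adjusted p = 0.287), a mean carried by pair 4. Its second probe, which overlaps the first, had 0.00094, 0.18, 0.14 and 1.16 (mean 0.37, SD 0.53) and was carried by the same pair. Ndufa9, which helps to join the 2 arms, had 0.02, 0.47, 0.27 and 0.43 (mean 0.30, SD 0.21, adjusted p = 0.272). Ndufab1 lay just beyond, at 0.10, 0.34, 0.22 and 0.32 (mean 0.24, SD 0.11, adjusted p = 0.361). The exception, named for its value, was Ndufa13, the proximal arm subunit also known as GRIM-19, at 0.12, 0.10, -0.09 and -0.15, a mean of -0.0052 (SD 0.14, adjusted p = 0.995).

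By position the TAUgl medians were 0.08 for the accessory matrix arm (8 of 8 above 0), 0.14 for the proximal membrane arm (6 of 7) and 0.16 for the distal membrane arm (10 of 10). The distal arm was uneven over the pairs here too, with medians of -0.04, 0.16, 0.25 and 0.31. The members whose promoter windows are described above lay within the span of the others. The NRF1-type windows belonged to Ndufa5 (0.16), Ndufa8 (0.34), Ndufb4 (0.15), Ndufs5 (0.14) and Ndufs6 (0.09), Ndufa11 being untested. The ETS-type windows belonged to Ndufb6 (0.34), Ndufb7 (0.15) and Ndufs3 (0.27). All members together ran from -0.0052 to 0.41.

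The array medians show how far single hybridisations carry this. Over the members, 7 of the 8 TAUgl arrays had a median above 0, but the dye-swapped arrays did not rank the members alike. Their correlation over the 31 members was -0.84, 0.36, -0.15 and -0.08 in pairs 1 to 4, below 0 in 3 of the 4 pairs. Pair 1 had 0.12 with the transgenic RNA in Cy3 and -0.08 with it in Cy5, and over all genes tested these arrays had medians of 0.39 and -0.43. Pairs 2 to 4 had 0.24 and 0.09, 0.07 and 0.13, and 0.14 and 0.30. Without pair 1, the pair of the fifth scan, 29 of 31 members lay above 0 with a median of 0.17. Within the scans, the medians were 0.17 for the pairs of the fourth scan, 0.12 for that of the fifth and 0.13 for that of the sixth, with 28, 24 and 26 members above 0. In the signal range of the members, between their quartiles, 65.3% of 972 genes lay above 0 in TAUgl with a median of 0.09, also above that of all genes. In the same range SODgl had a median of 0.05.

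**Figure D2:**
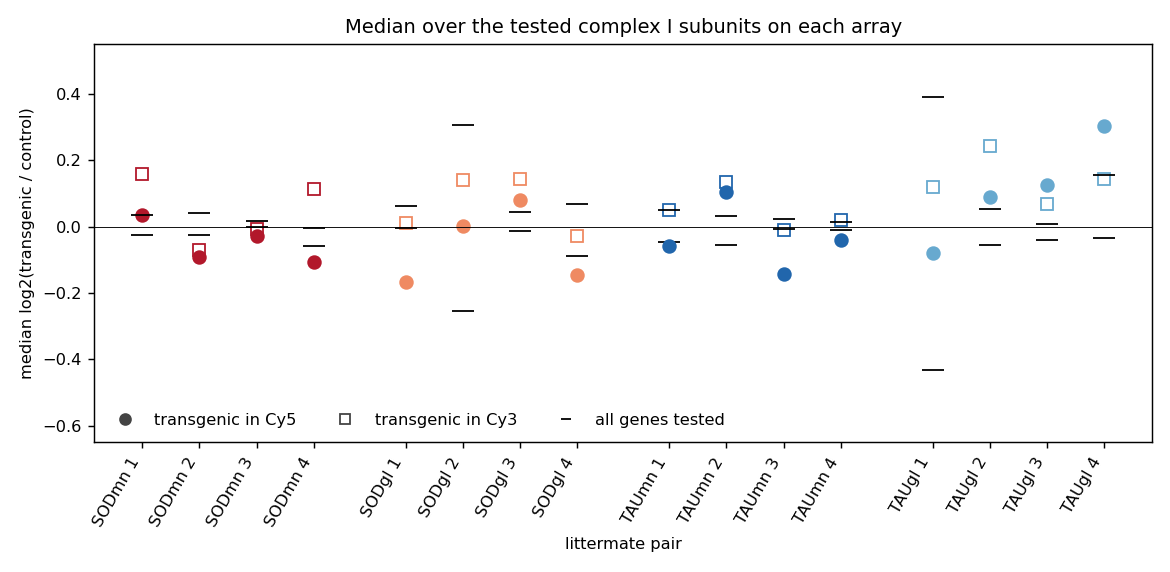
Median log2 ratio of transgenic over control over the tested complex I members on each of the 32 arrays (filled, transgenic RNA in Cy5; open, in Cy3), by littermate pair, with dashes for the median of all genes tested on the same array. The TAUgl arrays lie above 0 except 1 array of pair 1, whose all-gene medians are 0.39 and -0.43.

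Other lists of nuclear genes of the respiratory chain gave like values in TAUgl. There 50.9% of all genes lay above 0, and 65.3% of those in the signal range of the members. Complex III, which takes electrons from ubiquinol, had 9 of 9 genes above 0 with a median of 0.15. Complex IV, cytochrome c oxidase, had 7 of 10 with a median of 0.15, and complex V, the ATP synthase, 13 of 14 with a median of 0.15. Complex II, succinate dehydrogenase, had 2 of 3 with a median of 0.06. No gene of these lists was called by limma, and the genes of smallest p in the lists of complexes V, III and IV were Atp5a1 at 0.36 (adjusted p = 0.24), measured in 2 pairs, Cyc1 at 0.29 (SD 0.38, adjusted p = 0.488) and Cox7c at 0.30 (SD 0.50, adjusted p = 0.431). Atp5h, next by p in complex V, lay below 0, at -0.18 (SD 0.10, limma adjusted p = 0.353). Regulators of mitochondrial biogenesis had 2 of 8 above 0 and a median of -0.04, with pair medians of 0.03, 0.0014, -0.10 and 0.05. Among them Gabpa, the DNA-binding subunit of the ETS-type factor NRF2, had a mean of -0.21 (SD 0.17, adjusted p = 0.258). In SODmn the medians of complexes II, III, IV and V were -0.10, 0.01, 0.11 and 0.03. In SODgl they were -0.01, -0.02, 0.01 and -0.06, and in TAUmn 0.00, 0.01, -0.08 and -0.01, with no gene called in any.

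**Figure D3:**
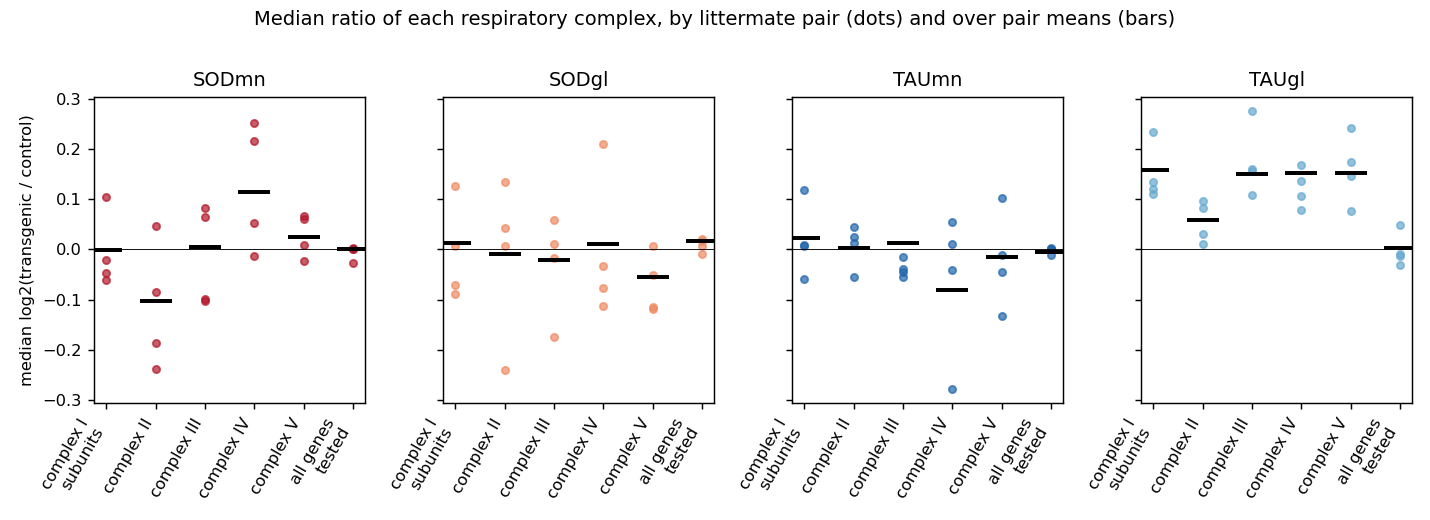
Median log2 ratio of transgenic over control over the tested genes of complexes I to V and over all genes tested, in each comparison; dots are littermate pairs and bars the median of the pair means. In TAUgl the bars of complexes I, III, IV and V stand between 0.15 and 0.16 and that of all genes at 0.00, while in the other comparisons they lie on both sides of 0.

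Cell type markers also lay off 0 in TAUgl, as some marker lists did in the other comparisons. Motor neuron markers lay above 0 for 8 of 9 genes with a median of 0.20, and pair medians of 0.16, 0.26, -0.07 and 0.32. The marker of smallest p, Isl1, lay below 0, at -0.19 (SD 0.19, limma adjusted p = 0.413). Of the list, 1 marker lay above 0 in every pair and 1 below. Their summed level ran from 4618 to 10991 in controls and from 6147 to 13075 in transgenic extracts, and was higher in the transgenic mouse in 3 of 4 pairs. Astrocyte markers lay above 0 for 0 of 9 with a median of -0.15. Their sums ran from 12534 to 19677 in controls and from 11277 to 14126 in transgenic extracts, higher in the transgenic mouse in 1 of 4 pairs. Oligodendrocyte markers lay above 0 for 1 of 8 with a median of -0.20, their sums running from 13121 to 20559 against 7328 to 17558, and higher in the transgenic mouse in 0 of 4 pairs. Red cell markers lay above 0 for 0 of 2 with a median of -0.46, and pair medians of -0.62, -0.44, -0.64 and -0.14. Their sums ran from 499.7 to 883 in controls and from 407 to 509 in transgenic extracts, higher in the transgenic mouse in 0 of 4 pairs. Microglia markers had 2 of 7 above 0 (median -0.03) and endothelial markers 0 of 2 (-0.10). In SODmn, motor neuron markers had 3 of 12 above 0 (-0.19), astrocyte markers 7 of 10 (0.10) and oligodendrocyte markers 8 of 8 (0.12). In that order SODgl had 4 of 8 (-0.01), 8 of 9 (0.07) and 6 of 8 (0.06). TAUmn had 7 of 9 (0.14), 4 of 9 (-0.02) and 2 of 7 (-0.06). Red cell markers had medians of -0.01, 0.06 and -0.79 in SODmn, SODgl and TAUmn. No marker was called by limma; Chat, Slc18a3, Gfap and Mog were among the dim ones, as above. In captured tissue, fewer cells of a type and less RNA per cell cannot be told apart. The part of these markers in the TAUgl result was not tested.

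No difference between comparisons passed the test for a complex I member. The contrast of TAUmn minus TAUgl called 0% of 8406 genes by limma, with 202 higher (2.4%) and 275 lower (3.27%) at an unadjusted p under 0.05. Of 31 members 6 lay above 0, against 48.5% of all genes, with a median of -0.20 against -0.0047 over all genes. The 4 members with an unadjusted p under 0.05 were lower in TAUmn: Ndufa8 by -0.56 ± 0.19 (SE), Ndufa4 by -0.40 ± 0.14, Ndufb6 by -0.40 ± 0.17 and Ndufv1 by -0.31 ± 0.13. Their adjusted p-values reached 0.849, and none was near the threshold. SODgl minus TAUgl also called 0% of 8430 genes (370 or 4.39% higher and 209 or 2.48% lower at an unadjusted p under 0.05), with 5 of 31 members above 0 (51.5% of all genes) and a median of -0.18 against 0.0042. In that contrast 3 members had an unadjusted p under 0.05, all lower in SODgl. Ndufa4 differed by -0.37 ± 0.14 (adjusted p = 0.584), Ndufb3 by -0.34 ± 0.14 (adjusted p = 0.643) and Ndufab1 by -0.34 ± 0.16 (adjusted p = 0.726). These contrasts share the TAUgl pairs.

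Between the motor neurons of the models, SODmn minus TAUmn called 0% of 11318 genes (507 or 4.48% higher and 775 or 6.85% lower at an unadjusted p under 0.05). Ndufc2 had the smallest p of any member in any contrast: its ratios lay below 0 in all SODmn pairs and above 0 in all TAUmn pairs, and the difference was -0.67 ± 0.16 (SE, limma adjusted p = 0.233). Ndufb10 lay the other way, at 0.68 ± 0.29 (adjusted p = 0.411), as did Ndufa12 at 0.39 ± 0.14 (adjusted p = 0.373). Ndufa10 differed by -0.36 ± 0.12 (adjusted p = 0.352) and Ndufb3 by -0.36 ± 0.14 (adjusted p = 0.402). Over the members the contrast had a median of 0.0077, with 18 of 34 above 0 (52.2% of all genes), against 0.0075 over all genes. SODmn minus SODgl called 0% of 9774 genes (958 or 9.8% higher and 500 or 5.12% lower at an unadjusted p under 0.05), with 15 of 31 members above 0 (41.3% of all genes) and a median of -0.02 against -0.03. Its smallest member p belonged to Ndufa12, at 0.43 ± 0.14 (SE, limma adjusted p = 0.147). The brightest probe of Ndufa12 had means of 0.23, -0.20 and -0.16 in SODmn, SODgl and TAUmn. Its further probes had -0.04 and -0.11 in SODmn, -0.04 and -0.02 in SODgl, and -0.02 and -0.05 in TAUmn. Both Ndufa12 contrasts thus depend on the probe.

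**Figure D4:**
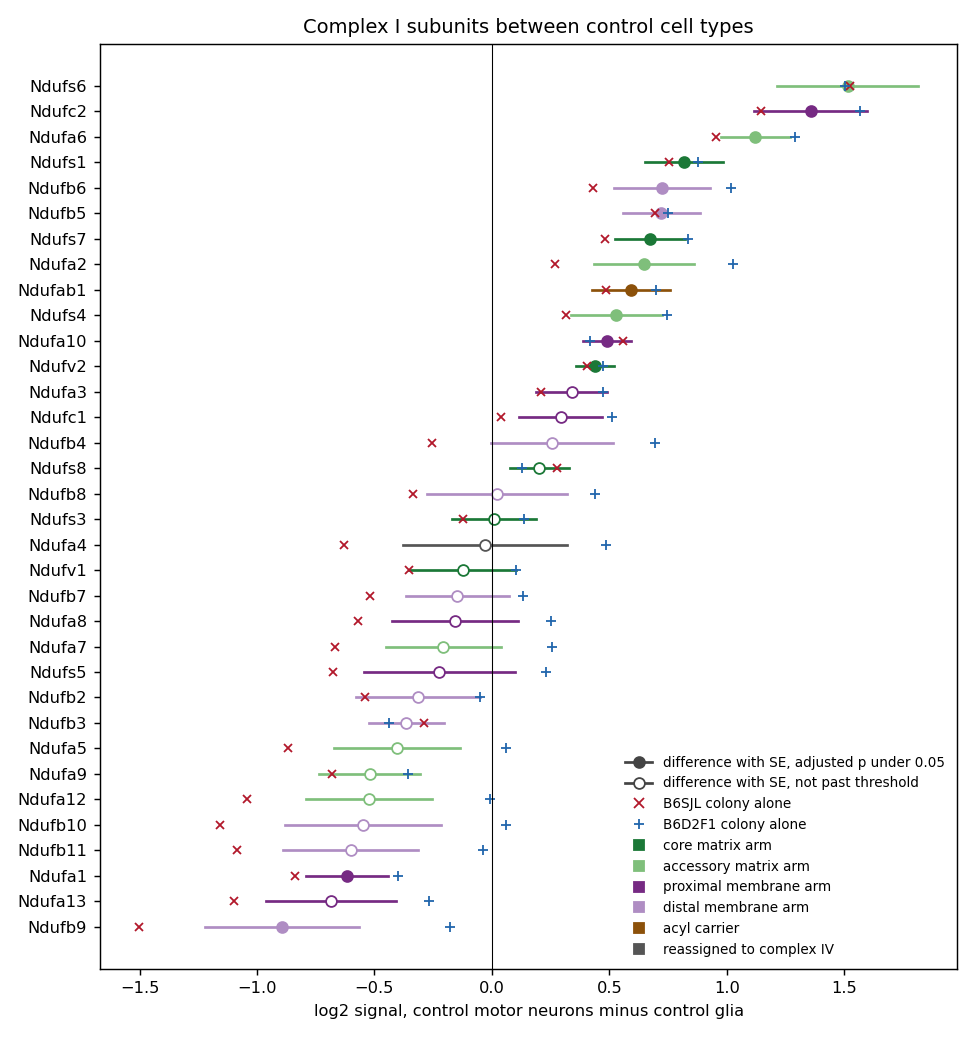
Difference in log2 level between control motor neurons and control glia for the 34 complex I members tested, with its SE (filled, limma adjusted p under 0.05), and the difference in each colony alone (x, B6SJL; +, B6D2F1). Ndufs6, Ndufc2 and Ndufa6 stand more than 1 above 0, and Ndufb9 and Ndufa1 below it.

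Between the cell types of control mice, the subunits did not move together: 12 of the 34 tested had the higher level in motor neurons, and 2 had it in glia. Among all 9923 genes, motor neurons were higher for 26.3% and glia for 14.5%, by limma on 16 control extracts with colony as a covariate. The median difference over members was 0.015 against 0.09 over all genes. Counted by position, the core had 3 of 6 and the accessory matrix arm 4 of 8 called for motor neurons, and 0 for glia. The proximal membrane arm had 2 of 8 that favoured motor neurons and 1 that favoured glia, and the distal arm 2 and 1 of 10. In the other complexes, motor neurons were higher for 3 of 4 genes of complex II and 2 of 14 of complex V. In complex III, 2 of 9 were higher in glia. In complex IV, 1 of 10 was higher in motor neurons and 3 in glia.

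By its brightest probe, the member with the widest difference was Ndufs6, a zinc-binding accessory subunit of the matrix arm (probe at chr13:73786350-73786409 of mm8, minus strand). Its level ran from 7.77 through a median of 8.45 to 10.43 in motor neurons and from 6.40 through 7.26 to 7.77 in glia, a difference of 1.51 ± 0.30 (SE, limma adjusted p = 0.00151). The groups touch at their edge, and the highest value was that of SODmn replicate 3, the library whose median over the members was low. Without it the difference was 1.29 (adjusted p = 0.000621). The other probes of Ndufs6 gave 0.45 and 0.39, the latter from a probe that overlaps the first, so the size for this gene depends on the probe. Ndufc2 (chr7:97282065-97282124 of mm8, plus strand) ran from 7.81 to 9.42 with a mean of 8.57 in motor neurons, and from 6.22 to 7.62 with a mean of 7.21 in glia, a difference of 1.36 ± 0.24 (adjusted p = 0.000719). Its groups did not overlap. Ndufa6, an accessory subunit of the matrix arm, ran from 7.37 through 7.66 to 8.10 against 6.10 through 6.72 to 6.91, a difference of 1.12 ± 0.15 (adjusted p = 0.000127), also without overlap. Ndufs1 ran from 7.56 through 7.92 to 8.17 against 6.23 through 7.21 to 7.44, a difference of 0.82 ± 0.17 (adjusted p = 0.0017), again without overlap. For Ndufb6, 8.53 through 9.90 to 10.36 stood against 8.67 through 9.09 to 9.46, a difference of 0.72 ± 0.20 (adjusted p = 0.0116), with groups that overlap. The share of all genes without such overlap was not counted, so separate groups are not shown to be particular to these members.

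Higher in glia were Ndufb9, of the distal membrane arm (chr15:58769500-58769559 of mm8, plus strand), and Ndufa1, a small proximal arm subunit (chrX:33619077-33619136 of mm8, minus strand). Ndufb9 ran from 8.66 through 11.22 to 11.46 in motor neurons and from 11.26 through 11.73 to 12.01 in glia, a difference of -0.89 ± 0.33 over 15 extracts (limma adjusted p = 0.0418). Its lowest value was that of SODmn replicate 3, without which the difference was -0.56 (adjusted p = 0.00649). The call was lost without SODmn replicate 1 or 4, without any 1 of the SODgl replicates 1 to 4, and without TAUgl replicate 1 or 2, with adjusted p-values up to 0.0744. Ndufa1 ran from 9.31 through 10.57 to 10.77 against 10.78 through 11.03 to 11.33, a difference of -0.62 ± 0.17 (adjusted p = 0.0114), with no overlap. A second probe of Ndufa1, dimmer and at chrX:33621323-33621382, gave 0.66, so the direction for this gene depends on the probe, and the mean over its probes gave 0.02 (adjusted p = 0.937). The remaining calls, all higher in motor neurons, were Ndufa2, Ndufa10, Ndufab1, Ndufb5, Ndufs4, Ndufs7 and Ndufv2, with differences from 0.44 to 0.72. Of these Ndufs4 lost its call in 12 of 16 omissions of 1 extract (adjusted p up to 0.0754) and Ndufa2 without TAUmn replicate 4 or TAUgl replicate 4 (adjusted p up to 0.0507). With the mean over probes Ndufab1 had 0.09 (adjusted p = 0.685) and was not called. Ndufa13, named after its values were seen, lay further below 0 than Ndufa1, at -0.68 ± 0.28 (adjusted p = 0.0595), and did not pass. Its groups did not overlap, with motor neurons up to 11.29 and glia from 11.31. In B6D2F1 mice alone it was called as higher in glia, at -0.27 (limma adjusted p = 0.0361).

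**Figure D5:**
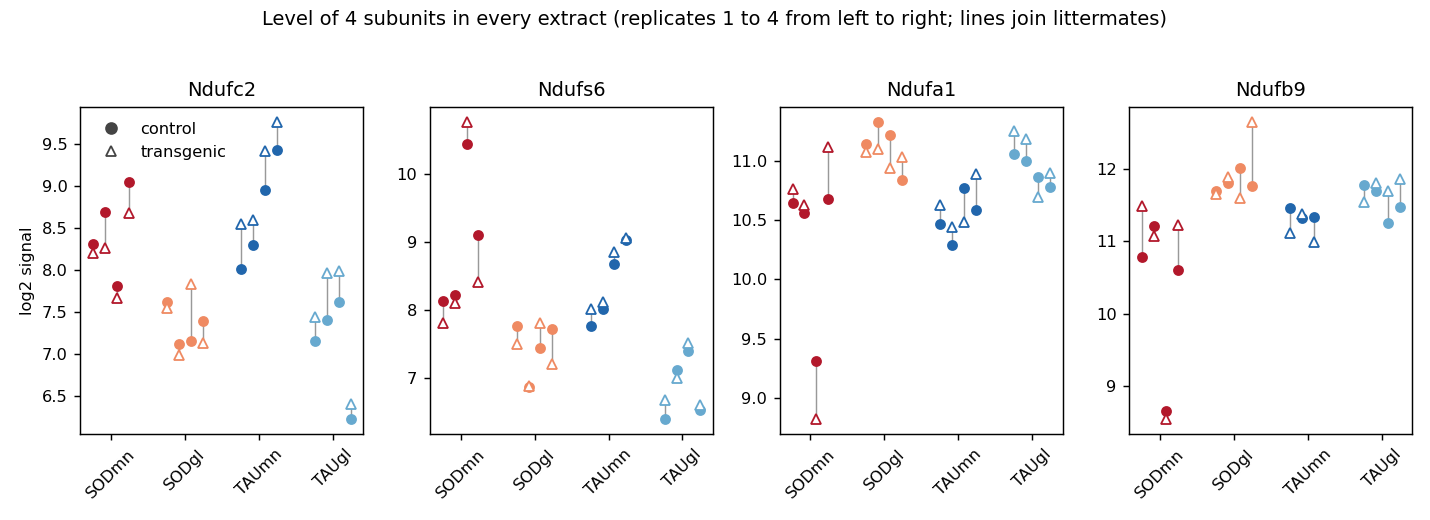
Log2 level of Ndufc2, Ndufs6, Ndufa1 and Ndufb9 in every control (dot) and transgenic (triangle) extract, with lines that join littermates; replicates run from left to right and each panel has its own axis. SODmn replicate 3 lies lowest of the motor neurons for Ndufa1 and Ndufb9 and highest for Ndufs6.

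The cell type difference was also fitted in each colony. In B6SJL mice alone, the median over members was -0.27 against 0.02 over all genes, with 4 members higher in motor neurons (Ndufa6, Ndufc2, Ndufs1 and Ndufv2) and 0 in glia, against 5.29% and 6.11% of all genes. In B6D2F1 mice alone it was 0.34 against 0.16, with 12 called for motor neurons and 2 for glia (19.2% and 5.12% of all genes). The 4 genes just named were among the 12. The 2 called for glia were Ndufa1 and Ndufa13, so Ndufb9 was not called in either colony alone. The difference of the differences called 0 of 9923 genes by limma, with a member median of 0.46 against 0.12 over all genes. SODmn replicate 3 weighs on this: without it the member median of that difference was 0.22 against 0.05. Over both colonies, its omission gave 16 members called as higher in motor neurons (34.4% of all genes), 4 called as higher in glia (13.9% of all genes), and a median of 0.25 against 0.13 over all genes. Motor neuron arrays were read in the first and second scan with one version of the scanner software and glia arrays in the third to sixth scan with another, so cell type and scan cannot be told apart.

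The assembly factors build the complex and are not part of the finished enzyme. Of the 7 factors Ndufaf1 to Ndufaf7, Ndufaf1 carried such a name on the array, Ndufaf2 stood under the synonym Ndufa12l, and 5 stood under clone names. No factor was called in any comparison with control mice. In SODmn, Ndufaf1, of the membrane arm assembly machinery, had 0.36, 0.05, 0.01 and 0.08, a mean of 0.13 (SD 0.16, limma adjusted p = 0.457), and was above 0 in every pair. The means of Ndufaf2 to Ndufaf7 there were -0.09, -0.04, -0.09, -0.03, 0.02 and -0.07. In SODgl, Ndufaf3 had -0.03, -0.00079, -0.22 and -0.50, a mean of -0.19 (SD 0.23, adjusted p = 0.202), below 0 in every pair with pair 4 the lowest. Ndufaf1 was not tested there, and Ndufaf2, Ndufaf4, Ndufaf5, Ndufaf6 and Ndufaf7 had means of -0.08, -0.06, 0.07, -0.06 and 0.0036, that of Ndufaf5 over 3 pairs.

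In TAUmn, Ndufaf4 had 0.19, 0.13, -0.03 and 0.37, a mean of 0.17 (SD 0.17, limma adjusted p = 0.995). Ndufaf2 had -0.38, 0.33, -0.59 and -0.32, a mean of -0.24 (SD 0.40, adjusted p = 0.995), with pair 2 opposed to the others. The means of Ndufaf1, Ndufaf3, Ndufaf5, Ndufaf6 and Ndufaf7 were 0.11, -0.04, 0.05, 0.10 and 0.03. In TAUgl the 7 factors had means of 0.08, 0.14, -0.12, -0.05, 0.05, 0.11 and 0.04 in the order of their numbers, with 5 above 0 and a median of 0.05, against 0.16 for the subunits. A further list of complex I assembly genes had 5 of 5 above 0 in TAUgl with a median of 0.09, led by Acad9, a partner of Ndufaf1, at 0.29 (SD 0.09, adjusted p = 0.25). Between the cell types of control mice, Ndufaf1 (0.43 ± 0.10 SE, limma adjusted p = 0.003), Ndufaf5 (0.49 ± 0.10, adjusted p = 0.00201) and Ndufaf7 (0.51 ± 0.15, adjusted p = 0.0129) were higher in motor neurons. Ndufaf3 was higher in glia (-0.43 ± 0.14, adjusted p = 0.0229), while Ndufaf2, Ndufaf4 and Ndufaf6, at 0.31, -0.15 and 0.26, did not pass.

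Several members had more than 1 probe, and these did not always point the same way. Of the second probes that passed the filter, those with the sign of the brightest probe were 5 of 11 in SODmn, 7 of 8 in SODgl, 7 of 10 in TAUmn and 5 of 8 in TAUgl. In SODmn the brightest probes of Ndufa1, Ndufa8, Ndufa12, Ndufb2 and Ndufc1 had means of 0.03, -0.02, 0.23, 0.03 and 0.16. Their other probes had -0.02, 0.04, -0.04 and -0.11, -0.10 and -0.19 in the same order. The case in SODgl was Ndufa1, at -0.09 against 0.03. In TAUmn the probes of Ndufab1 had -0.02 against 0.05 and 0.06, and those of Ndufc1 -0.05 against 0.11. In TAUgl those of Ndufa12 had 0.08 against -0.11, and those of Ndufs6 0.09 against -0.04 and -0.0043. For the cell type difference, 5 of 9 second probes had the sign of the first. Ndufa12 gave -0.52 against 0.29 and 0.54, and Ndufab1 0.59 against -0.34, besides Ndufa1. Probe positions are those of the glia file headers (mm8), and the genes' exons on that build were not analysed here.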

How the data were processed

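Per the file headers, the deposited files hold spot intensity values from Agilent Feature Extraction (8.5.1.1 for motor neurons, which the submitters' processing notes also name, and 9.5.1.1 for glia) and its log10 ratio of red over green, Cy5 over Cy3. Log10 ratios of the same arrays also stand in a series matrix that the authors deposited. Set against the scanner values, its columns had r from 0.982 to 0.999, a slope from 0.998 to 1.002 and medians of 0. Its log2 equivalent was used as an alternative.

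Here, mean signals were background corrected (limma 3.58.1 in R 4.3.3, normexp, offset 50) and dye normalized by loess within arrays. Control and outlier spots were left out. Ratios were turned to transgenic over control, and the 2 dye-swapped arrays of a pair were averaged. Of 41174 non-control probes, 23695 were named by accession, 6530 by symbol, 2856 by a synonym and 8093 by none, which gave 27540 genes or single probes. A gene was tested where its probe was well above background in at least 4 of 8 extracts, or, for levels, 8 of 16 control extracts. All 16 pairs entered 1 limma fit, with each group's mean tested against 0 and Benjamini-Hochberg adjustment at 0.05 over all genes. Levels were single-channel log2 intensities after Aquantile. The fits were tested on simulated data. Columns that matched no sample numbered 0.

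Named were the core subunits, 1 of which is not reported here by name, members past the threshold, up to 4 members of smallest p in each direction with 1 sign in all pairs, up to 5 of the largest cell type differences each way past the threshold, up to 2 genes of smallest p in each other list, all assembly factors, and members whose probes disagree. In the differences between comparisons, members with an unadjusted p under 0.05 were named, chosen after their values were seen. Where another gene is named, the text says so. The members and lists were chosen with earlier results of these data known. The pairs are separate animals, and their number sets the precision. Alternatives covered background correction, the deposited log ratios, probe choice, filters, scan, replicate block and each pair left out.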

Additional observations from a re-analysis of the deposited data

Results flagged for a closer look

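Of 122 groups of 4 values examined, 6 held 1 sample far from the other 3 by Dixon's criterion. Chance flags about 1 in 20 such groups. The causes were not tested.

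In SODmn, the ratio of Ndufs4 was -0.51 in pair 4 against -0.16 to -0.09 in the others, and the control level of Ndufa1 was 9.31 in replicate 3 against 10.56 to 10.68. That replicate was low over most members. In SODgl, the ratio of Ndufv1 was 0.27 in pair 2 against -0.02 to 0.01, in a pair whose dye-swapped arrays correlated below 0, and the control level of Ndufb5 was 6.73 in replicate 3 against 7.03 to 7.06. In TAUmn, the ratio of Ndufb3 was 0.49 in pair 4 against 0.10 to 0.11, and that of Ndufa7 was 0.35 in pair 3 against 0.04 to 0.07.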

How the results depend on the processing

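Single values of named members and assembly factors against control mice were followed under the alternatives other than each pair left out in turn or 1 scan alone. The joint omission of the pairs of the fifth scan, SODgl pair 2 and TAUgl pair 1, was among those kept. Of 532 such values 0 passed the threshold, and 15 turned sign. A change of filter, or a fit of a comparison's pairs alone, leaves the mean of a gene as it was. The mean over probes alters only genes with more than 1 probe. Part of these values thus could not turn sign, and the count of turns does not measure stability. Single values between comparisons were not counted in this way. No member was called against control mice or between comparisons under any alternative run. The SODmn median was -0.15 and that of SODmn minus TAUmn -0.17 when probes had to be above background in all 8 extracts. The TAUgl median was 0.21 with the scanner's own log ratio (29 of 31 members above 0) and 0.21 with the authors' series matrix (27 of 31), 0.14 without background correction and 0.15 with the mean over probes. Members higher in glia numbered 1 of 34 with quantile normalization, against 1344 of 9923 genes. They numbered 1 of 34 with the mean over probes (1387 of 9988 genes) and 1 of 36 without the filter (3380 of 27540 genes). In B6SJL mice alone 0 were higher in glia (6.11% of all genes) and 4 in motor neurons (5.29% of all genes). Ndufa1 turned to 0.019 with the mean over probes, where a second probe of other sign enters.

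Leaving out each replicate in turn gave member medians from -0.02 to 0.05 in SODmn, -0.03 to 0.03 in SODgl, -0.02 to 0.05 in TAUmn and 0.13 to 0.18 in TAUgl. The contrasts ranged from -0.05 to 0.04 for SODmn minus SODgl, -0.23 to -0.12 for TAUmn minus TAUgl, -0.03 to 0.02 for SODmn minus TAUmn and -0.23 to -0.11 for SODgl minus TAUgl, with 0 to 0 members called in each. For the cell type difference the median ran from -0.05 to 0.25, members higher in motor neurons from 10 to 16 and in glia from 1 to 4. Of all 9923 genes, from 2164 to 3409 were then higher in motor neurons and from 1220 to 1757 in glia. Over all genes, SODmn called 40 without background correction and 5 without replicate 4.

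The replicate numbers were not taken to pair the motor neuron and glia samples, since the correlation of deviations ran from -0.11 to 0.28 for ratios and from -0.08 to 0.52 for control levels. With the replicate block 0 members were called, with medians of -0.01 and -0.20 for motor neurons minus glia in the SOD and TAU models. For control levels, the fit with the block called 11 of 34 members higher in motor neurons and 2 in glia. Of all 9923 genes it called 2407 and 1542 in these directions. It kept 12 of the 14 main calls, with Ndufa2 (limma adjusted p = 0.0600) and Ndufb9 (adjusted p = 0.0659) past the threshold no longer. The calls for glia thus included a member that was not called in the main fit. Dim probes limit the depth: 5 members could not be tested in glia.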
